A study of Mus musculus with 24 samples.

Results

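Genes of the endoplasmic reticulum and ATF4 stress responses were followed in cultured mouse fat cell precursors during adipogenic differentiation with or without epigallocatechin gallate (EGCG), the main green tea catechin. The 10 genes were taken by symbol from the 37310 genes of the deposited tables. The ATF4 arm holds 6 of them (Atf4, Ddit3, Trib3, Asns, Chac1 and Atf3), and the XBP1/ATF6 arm holds 4 (Hspa5, Xbp1, Herpud1 and Dnajb9). All 10 passed the filter on low values in the tests below. The cells were stromal vascular cells, the mixed cell fraction left after fat is digested and the adipocytes are removed, from the inguinal white adipose tissue (WAT) and the interscapular brown adipose tissue (BAT) of C57BL/6 mice aged 6 weeks. Confluent cells were induced with insulin, dexamethasone and 3-isobutyl-methylxanthine until day 4 and were then kept with insulin and T3 until day 8, with EGCG or the solvent DMSO (control) in the medium. The labels give no EGCG dose and no start of the treatment. The 8 groups were WAT day 4 control, WAT day 4 EGCG, WAT day 8 control, WAT day 8 EGCG and the corresponding 4 groups of BAT, with 3 libraries in each and 24 in all. It is not stated in the labels whether the replicates came from separate isolations or cultures, so that p-values here measure only the spread between these libraries, which may be technical.

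When unfolded protein accumulates in the endoplasmic reticulum, 3 sensors in its membrane start separate branches of a common response. PERK phosphorylates the translation initiation factor eIF2 alpha, which lowers protein synthesis in general but favours translation of ATF4. The same factor is phosphorylated by kinases that sense amino acid shortage, heme shortage and double-stranded RNA, so ATF4 targets also answer to stress outside the endoplasmic reticulum. IRE1 splices the mRNA of Xbp1 into the form that encodes the active factor, and ATF6 is cut in the Golgi to release its own active factor. Both raise chaperones and degradation factors of the endoplasmic reticulum. In fat tissue, XBP1 is known as a factor required for the differentiation of adipocytes. Values of whole genes do not separate spliced from unspliced Xbp1, and mRNA of Atf4 does not show how much of it was translated.

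The promoter stretches below are shown because they hold the response elements by which the arms are usually defined. RefSeq promoter windows (250 bases before to 50 bases after the start, build GRCm38.p6) were found for 10 of 10 genes. The letters searched on both strands were TGATGCAAT (the complete C/EBP-ATF response element, CARE), its core TGATGNAA, which also matches every TGATGCAAT, TGACGTGG (the unfolded protein response element), CCAAT and CCACG separated by 9 bases (the endoplasmic reticulum stress response element, ERSE), and ATTGG and CCACG separated by 1 base (ERSE-II). Capitals mark the matched letters. The core and ERSE-II were added after the first search.
Hspa5, ERSE, chr2:34772015-34772053, plus strand: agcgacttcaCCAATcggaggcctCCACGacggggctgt
Herpud1, ERSE-II, chr8:94386367-94386397, plus strand: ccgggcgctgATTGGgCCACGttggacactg
Herpud1, CARE core, chr8:94386307-94386334, plus strand: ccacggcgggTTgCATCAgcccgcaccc
Asns, CARE core, chr6:7693215-7693242, minus strand: cccagccacaTGATGaAActtcccgcac
Chac1, CARE core, chr2:119351039-119351066, plus strand: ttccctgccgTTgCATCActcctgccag
Atf3, CARE core, chr1:191183426-191183453, minus strand: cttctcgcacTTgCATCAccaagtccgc
The ERSE letters were in 0.119% of 32851 windows and in that of Hspa5 alone among the 10 genes. The ERSE-II letters were in 0.0365% of windows and in that of Herpud1. The CARE core was in 3.97% of windows and in those of 5 of the 10 genes, the fifth being Trib3, where the match lay 15 to 22 bases past the start. The letters of the complete CARE (0.192% of windows) and of the unfolded protein response element (0.676%) were in none of the 10 windows. These matches describe letters and not binding.

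Expression is given as FPKM, the reads of a gene scaled to its length and to the reads of the library. Replicates 1 and 2 came in 1 table (39452696 to 52893848 reads on genes per library) and replicate 3 in another that was scaled separately (16392420 to 41675648 reads). Tests were made on replicates 1 and 2 with limma, on log2(FPKM + 1), over 14095 genes, with adjusted p-values under 0.05 counted as calls. Replicate 3 gave direction only. WAT day 8 EGCG replicate 3 stood apart, with 61.0% of its reads on 5 genes against 3.64% to 10.5% in the other 23 libraries, so that its FPKM of other genes are low by scaling. Dividing by median-ratio size factors (0.456 for that library, 1.01 to 1.23 for the others of its table) gives the scaled values named below. With EGCG the summed FPKM of 10 adipocyte markers was lower in all 4 depot and day combinations, from 3706 to 4078 to 1105 to 1157 in WAT on day 4, from 6318 to 7170 to 650 to 712 in WAT on day 8, from 6299 to 7296 to 1527 to 1590 in BAT on day 4 and from 11257 to 11342 to 469 to 477 in BAT on day 8, and 10 of 10 were called lower in each. Of 7 macrophage markers tested, 6 were called higher in WAT and 5 in BAT on day 4, with summed FPKM of 80.4 to 86.1 against 204 to 208 in WAT and 189 to 202 against 404 to 447 in BAT. On day 8, 7 were called lower in WAT (133 to 164 against 59.4 to 62.4) and 6 in BAT (132 to 133 against 62.7 to 64.1). Of 5 endothelial markers tested, 4 or 5 were called higher in each comparison, and their summed FPKM lay between 11.1 and 38.8 in all groups. No marker of these lists was at 0 in both replicates of a group. The part of these shifts in the results below was not tested, and in bulk samples fewer cells of a type and less RNA per cell cannot be told apart.

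Atf4 encodes the transcription factor that gives the first arm its name (ENSMUSG00000042406.6, chr15:80085614-80087970 in mm9, the build of all gene positions given here). In WAT on day 4 its FPKM was 278, 256 and 283 in control replicates 1, 2 and 3 and 314, 295 and 329 with EGCG. On day 8 it was 154, 114 and 132 in WAT control and 224, 217 and 95.1 with EGCG, where the third value is the library that stood apart (209 after scaling). In BAT on day 4 it was 141, 144 and 157 in control and 210, 189 and 216 with EGCG, and on day 8 it was 121, 131 and 124 against 172, 173 and 191. The libraries with EGCG lay above their controls in every comparison apart from that single unscaled value. Atf4 rose 1.64-fold in WAT on day 8 (log2 change 0.73 ± 0.11 SE, adjusted p = 9.2e-05), 1.40-fold in BAT on day 4 (0.48 ± 0.11, adjusted p = 0.0029) and 1.37-fold in BAT on day 8 (0.45 ± 0.11, adjusted p = 0.00242). The last call was lost under median-ratio scaling (0.25, adjusted p = 0.0526). The log2 change of 0.19 in WAT on day 4 (95% interval -0.04 to 0.42) was not called. It passed the threshold when replicate 3 was added without the library that stood apart (0.20, adjusted p = 0.0285).

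Atf3 encodes a stress-induced transcription factor of the same family (ENSMUSG00000026628.8, chr1:192994175-193007219). It was the only member called higher with EGCG in all 4 comparisons. In WAT on day 4 it had 9.75, 8.88 and 10.6 FPKM in control and 17.1, 17.1 and 17.3 with EGCG, and on day 8 it had 8.71, 4.96 and 6.39 against 27.5, 26.5 and 11.9 (26.2 after scaling). The values of BAT were 6.92, 6.79 and 6.51 against 19.6, 20.1 and 25.7 on day 4, and 13, 12.7 and 12.5 against 32.9, 34.4 and 33.7 on day 8. The EGCG and control libraries did not overlap in any of the 4. The log2 changes were 0.81 ± 0.15 (adjusted p = 0.000952), 1.88 ± 0.15 (adjusted p = 7.84e-07), 1.41 ± 0.15 (adjusted p = 1.49e-05) and 1.32 ± 0.15 (adjusted p = 9.07e-06) in WAT on day 4, WAT on day 8, BAT on day 4 and BAT on day 8. The largest of these was a 3.95-fold difference between group means, in WAT on day 8. All 4 calls held under each of the 9 other settings tried and without any single library.

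Ddit3 encodes CHOP, a transcription factor tied to cell death under prolonged endoplasmic reticulum stress and to the block of C/EBP factors in adipocyte differentiation (ENSMUSG00000025408.9, chr10:126727830-126733344). In WAT its FPKM was 70.0, 64.2 and 60.1 in control and 86.9, 84.9 and 88.9 with EGCG on day 4, and 51.6, 32.7 and 39.4 against 95.6, 96.4 and 44.7 (98.1 after scaling) on day 8. For BAT it was 57.7, 61.2 and 70.6 against 54.4, 52.7 and 61.8 on day 4, and 65.3, 71.0 and 69.4 against 108, 104 and 122 on day 8. The highest libraries of the series were thus those of BAT day 8 EGCG. In BAT on day 4, EGCG lay below control within each table, and libraries overlapped only across the 2 separately scaled tables. Ddit3 rose 2.28-fold in WAT on day 8 (1.20 ± 0.14, adjusted p = 1.72e-05) and 1.55-fold in BAT on day 8 (0.63 ± 0.14, adjusted p = 0.00188). It was not called on day 4, with changes of 0.35 (95% interval 0.04 to 0.67, adjusted p = 0.0578) in WAT and -0.15 (-0.46 to 0.17) in BAT. The WAT change passed the threshold when replicate 3 was added without the library that stood apart (0.42, adjusted p = 0.00304), when both tables were scaled by median ratios (0.30, adjusted p = 0.0237) and in voom on recovered reads (0.36, adjusted p = 0.0168). Ddit3 overlaps Mars and RP24-341K21.6 on the opposite strand. Neither of these exceeded 33.6 FPKM in any library of replicates 1 and 2. Reads of the overlap cannot be told apart where counting did not use the strand, which the sources used here do not state.

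Trib3 encodes a pseudokinase that is induced through ATF4 and CHOP and that restrains AKT signalling and ATF4 itself (ENSMUSG00000032715.8, chr2:152163158-152169768). In BAT it fell on both days, while Atf3 rose on both and Ddit3 was called, as higher, on day 8 alone. On day 8 its FPKM was 62.6, 66.2 and 63.9 in BAT control, the highest of any group, and 9.51, 9.37 and 11.1 with EGCG, the lowest group mean of replicates 1 and 2. This was a 6.82-fold lower mean (-2.65 ± 0.12, adjusted p = 2.91e-09). On day 4 it was 28.2, 30.6 and 36.8 in BAT control and 13.2, 13.5 and 18.2 with EGCG, 2.21-fold lower (-1.09 ± 0.12, adjusted p = 1.84e-05). In WAT the values lay closer together, with 30.7, 28.7 and 33.0 against 25, 22 and 24 on day 4 and 21.9, 15.2 and 19.0 against 20.0, 19.1 and 8.84 (19.4 after scaling) on day 8. The fall in WAT on day 4 (-0.33 ± 0.12, adjusted p = 0.0398) was lost without control replicate 1 (-0.28, adjusted p = 0.167), without control replicate 2 (-0.37, adjusted p = 0.0726), without EGCG replicate 2 (-0.24, adjusted p = 0.216) and without the filter on low values (adjusted p = 0.0908). The change on day 8 in WAT was not called (0.09, 95% interval -0.18 to 0.36). There EGCG replicates 1 and 2 both lay below control replicate 1 and above control replicate 2. Without control replicate 1 the change was 0.34.

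Asns (ENSMUSG00000029752.6, chr6:7625169-7643254), asparagine synthetase, is a classical target of ATF4 in amino acid shortage. Its FPKM in replicates 1 and 2 lay between 33.7 and 86.8. It was highest in WAT day 4 EGCG (86.8, 85.9 and 84.5) and lowest in BAT day 8 EGCG (34.6, 33.7 and 37.0). With EGCG it rose in WAT on day 4 (64.2, 58.0 and 63.0 in control, log2 change 0.49 ± 0.06, adjusted p = 2.95e-05), in WAT on day 8 (0.35 ± 0.06, adjusted p = 0.000264) and in BAT on day 4 (0.23 ± 0.06, adjusted p = 0.00614). It fell in BAT on day 8 from 40.5, 41.2 and 41.4 (-0.25 ± 0.06, adjusted p = 0.0022). Its direction in BAT thus differed between the days. The change of Asns in WAT on day 8 was as low as 0.15 in other settings, where the median of all genes as tested was 0.17. With both tables as deposited in 1 fit it was -0.0238.

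Chac1 (ENSMUSG00000027313.3, chr2:119176965-119180117) encodes an enzyme that degrades glutathione and had the lowest FPKM of the 10 genes in all 8 groups (means of replicates 1 and 2). Chac1 had 2.80, 1.25 and 2.10 FPKM in WAT day 8 control and 10.4, 8.17 and 4.49 (9.84 after scaling) with EGCG. It had 8.26, 8.83 and 7.40 in BAT day 8 control against 4.84, 5.62 and 6.94 with EGCG. The treated libraries were all higher in WAT and all lower in BAT. The gene rose 4.58-fold in WAT on day 8 (1.81 ± 0.20, adjusted p = 9.52e-06) and fell in BAT on day 8 (-0.62 ± 0.20, adjusted p = 0.0155). The fall was lost without BAT day 8 control replicate 2 (-0.57, adjusted p = 0.0703) and without BAT day 8 EGCG replicate 1 (-0.53, adjusted p = 0.0898). On day 4 the changes were -0.06 (95% interval -0.51 to 0.38) in WAT and 0.22 (-0.22 to 0.66) in BAT, neither called.

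**Figure D1:**
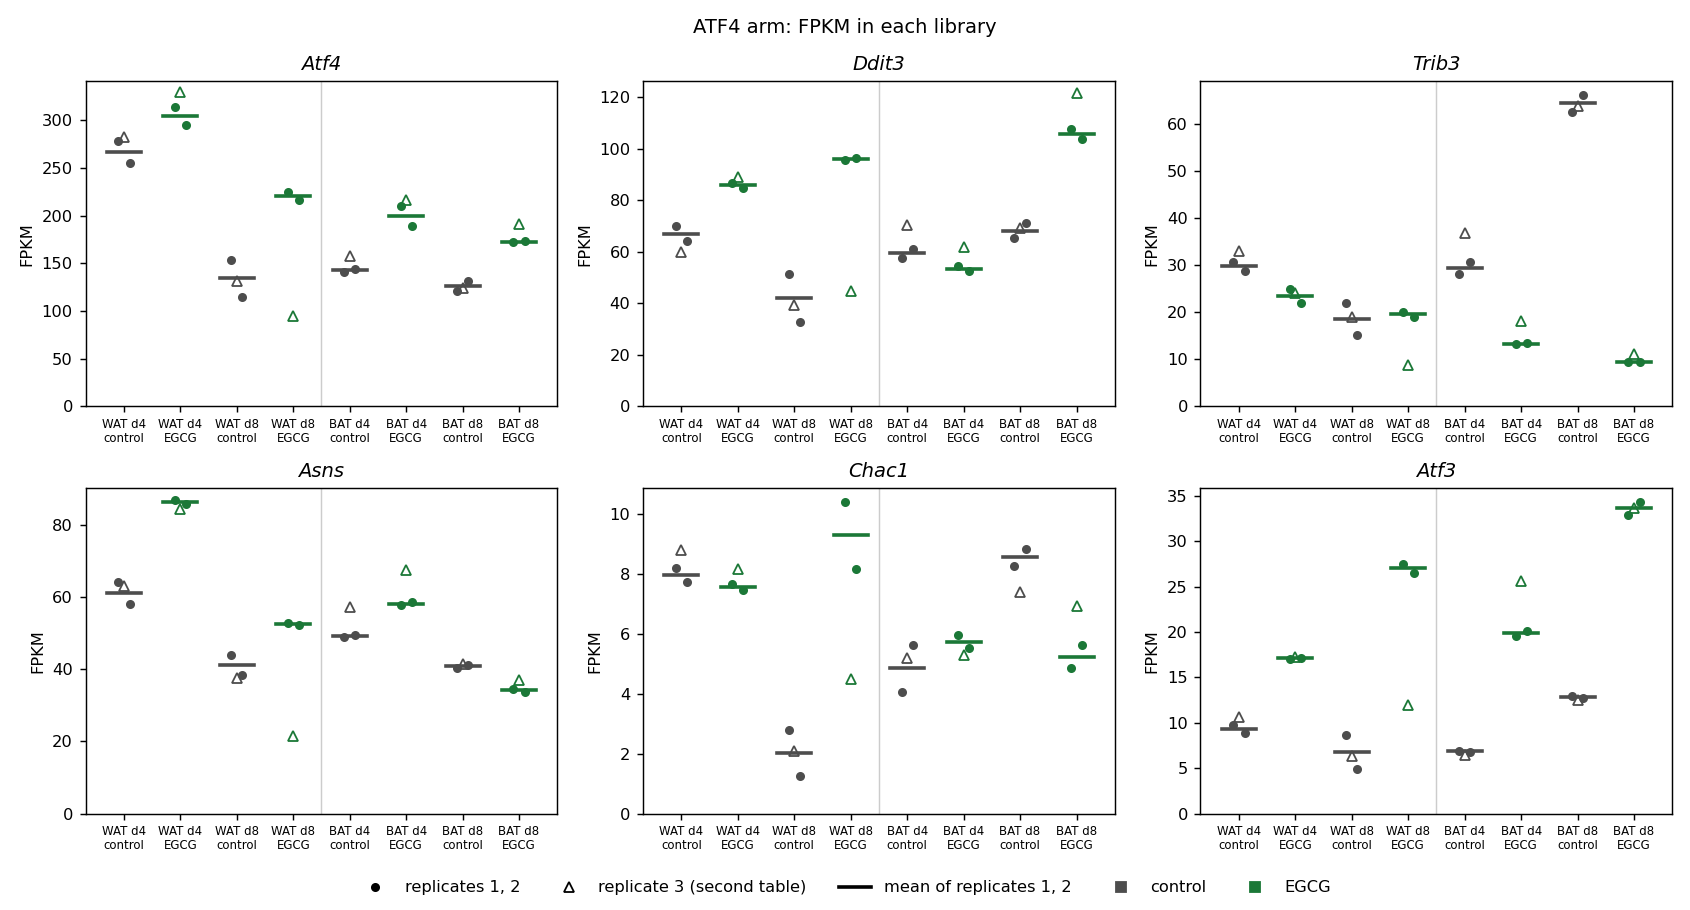
FPKM (y axis, from 0) of the 6 genes of the ATF4 arm in the 24 libraries, by group (x axis), with control in grey, EGCG in green, circles for replicates 1 and 2, a triangle for replicate 3 as deposited and a bar for the mean of replicates 1 and 2. Trib3 drops from 64.4 to 9.44 in BAT on day 8 while Atf3 goes from 12.8 to 33.6, and the triangle of WAT day 8 EGCG lies low in all 6 panels.

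Hspa5 encodes BiP, the main chaperone of the endoplasmic reticulum lumen and the usual readout of ATF6 and XBP1 (ENSMUSG00000026864.7, chr2:34627490-34632051, with the ERSE shown above). It was the most abundant of the 10 genes per length. On day 4 its FPKM was 607, 572 and 601 in WAT control and 322, 331 and 340 with EGCG, and 485, 453 and 483 in BAT control and 295, 301 and 322 with EGCG. Every EGCG library of day 4 lay below every control library of that day. Hspa5 fell 1.80-fold in WAT (-0.85 ± 0.09, adjusted p = 1.58e-05) and 1.57-fold in BAT (-0.65 ± 0.09, adjusted p = 0.000129). On day 8 it was 397, 310 and 351 in WAT control and 418, 421 and 169 (372 after scaling) with EGCG, and 335, 375 and 370 in BAT control and 320, 331 and 338 with EGCG. The rise in WAT on day 8 (0.26 ± 0.09, adjusted p = 0.0309) was lost without control replicate 2 (0.08, adjusted p = 0.354), without either EGCG replicate 1 (0.26, adjusted p = 0.0907) or EGCG replicate 2 (0.25, adjusted p = 0.0987) and under median-ratio scaling (0.05, adjusted p = 0.675). The change of -0.12 in BAT on day 8 (95% interval -0.33 to 0.08) was not called as deposited but was called lower under median-ratio scaling (-0.33, adjusted p = 0.00793).

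Xbp1 (ENSMUSG00000020484.11, chr11:5420662-5425896) fell with EGCG in 3 of the 4 comparisons. In BAT on day 8 its FPKM was 118, 128 and 125 in control and 57.0, 58.8 and 65.3 with EGCG, 2.13-fold lower (-1.08 ± 0.06, adjusted p = 2e-08). It was 136, 134 and 139 in BAT day 4 control against 95, 103 and 107 with EGCG (-0.45 ± 0.06, adjusted p = 0.000109). In WAT on day 8 it was 125, 114 and 118 against 81.5, 88.8 and 34.0 (74.6 after scaling), 1.40-fold lower (-0.48 ± 0.06, adjusted p = 3.38e-05). In these comparisons no library with EGCG reached the level of a control library. Values of WAT on day 4 were 117, 112 and 124 against 128, 119 and 131, and the change of 0.11 (95% interval -0.03 to 0.24) was not called.

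Herpud1, a membrane protein that takes part in degradation from the endoplasmic reticulum (ENSMUSG00000031770.9, chr8:96910338-96919277), holds both an ERSE-II and a CARE core in its window. Its lowest values were those of BAT day 4 control, with 20.1, 19.1 and 22.9 FPKM against 30.1, 28.2 and 28.6 with EGCG. It rose there 1.49-fold (0.55 ± 0.13, adjusted p = 0.0042). The rise in WAT on day 8 (44.3, 29.5 and 34.7 in control, 46.3, 47.7 and 19.6 or 43.1 after scaling with EGCG, 0.37 ± 0.13, adjusted p = 0.0261) was lost without control replicate 2 (0.08, adjusted p = 0.275), without EGCG replicate 1 (0.39, adjusted p = 0.0692), without EGCG replicate 2 (0.35, adjusted p = 0.0978) and under median-ratio scaling (0.17, adjusted p = 0.292). The change of -0.28 in BAT on day 8 (adjusted p = 0.0749) was not called as deposited but was called lower under median-ratio scaling (-0.48, adjusted p = 0.00569). It was 0.09 in WAT on day 4 (95% interval -0.19 to 0.37).

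Dnajb9 (ENSMUSG00000014905.3, chr12:45306884-45311055) encodes ERdj4, a partner of BiP and a target of XBP1. Its FPKM in replicates 1 and 2 ranged from 21.3 to 41.9, the narrowest span of the XBP1/ATF6 arm. It fell in BAT on day 8, from 33.1, 33.5 and 29.2 to 21.3, 22.7 and 22.2 (-0.58 ± 0.06, adjusted p = 4.22e-06). In the other 3 comparisons it was not called, with changes of 0.01 in WAT on day 4, 0.05 in WAT on day 8 and -0.12 in BAT on day 4. In WAT on day 8 it was called lower under median-ratio scaling (-0.15, adjusted p = 0.0498) and quantile normalization (-0.15, adjusted p = 0.0483).

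**Figure D2:**
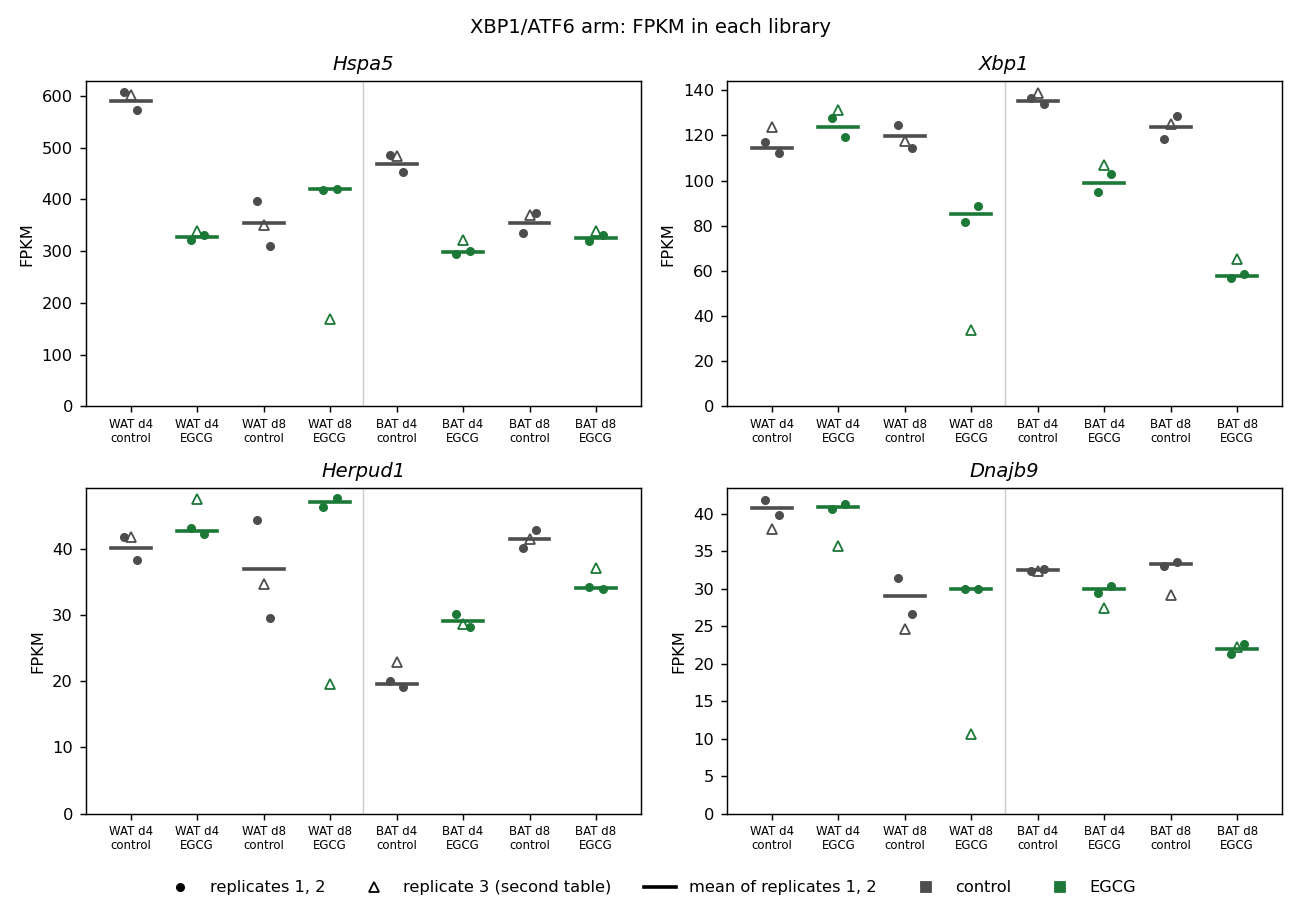
FPKM (y axis, from 0) of the 4 genes of the XBP1/ATF6 arm in the 24 libraries, by group (x axis), with the same colours and symbols as for the ATF4 arm. On day 4 the mean of Hspa5 falls from 589 to 327 in WAT and from 469 to 298 in BAT, and Xbp1 is lowest in BAT day 8 EGCG, with a mean of 57.9.

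EGCG in WAT on day 4 gave 4 calls among the 10 genes, 2 higher (Asns and Atf3) and 2 lower (Trib3 and Hspa5), beside 53.7% of all genes tested (34.4% higher and 19.3% lower). It gave 8 calls in WAT on day 8, beside 63.6% of all genes (44.7% higher and 18.9% lower). The 7 higher were 5 of the ATF4 arm, all but Trib3, with Hspa5 and Herpud1, and Xbp1 was the 1 lower. The 7 calls in BAT on day 4 stood beside 48.5% (27.9% higher and 20.6% lower), with Atf4, Asns, Atf3 and Herpud1 higher and Trib3, Hspa5 and Xbp1 lower. The 8 calls in BAT on day 8 stood beside 72.6% (46.5% higher and 26.1% lower), with Atf4, Ddit3 and Atf3 higher and Trib3, Asns, Chac1, Xbp1 and Dnajb9 lower. With 10 genes these counts are a description beside the background, and nothing particular to the arms was read from them. The median log2 change was 0.27, 0.97, 0.23 and 0.10 in the ATF4 arm and 0.05, 0.15, -0.28 and -0.43 in the XBP1/ATF6 arm for WAT on day 4, WAT on day 8, BAT on day 4 and BAT on day 8, beside 0.09, 0.17, 0.03 and 0.17 over all genes tested. Median-ratio scaling brought the median of all genes to -0.01, 0.00, 0.01 and 0.01, a shift of over 0.1 on day 8 in both depots. The medians of the arms became 0.15, 0.76, 0.20 and -0.10 (ATF4) and -0.07, -0.05, -0.31 and -0.62 (XBP1/ATF6), so that 3 of these 8 medians turned, that of the ATF4 arm in BAT on day 8 and those of the XBP1/ATF6 arm in WAT on both days. Under it 4 genes were called in WAT on day 4 (2 higher and 2 lower), 7 in WAT on day 8 (5 higher and 2 lower), 7 in BAT on day 4 (4 higher and 3 lower) and 9 in BAT on day 8 (2 higher and 7 lower). Of the 14095 genes tested, the same scaling called 3504 higher and 3945 lower, 4036 and 3944, 3541 and 3164, and 5021 and 4815. Replicate 3 had the direction of the call for 23 of the 27 calls as deposited and for 27 after median-ratio scaling. The 4 that differed were all in WAT on day 8, whose EGCG library of that table stood apart.

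**Figure D3:**
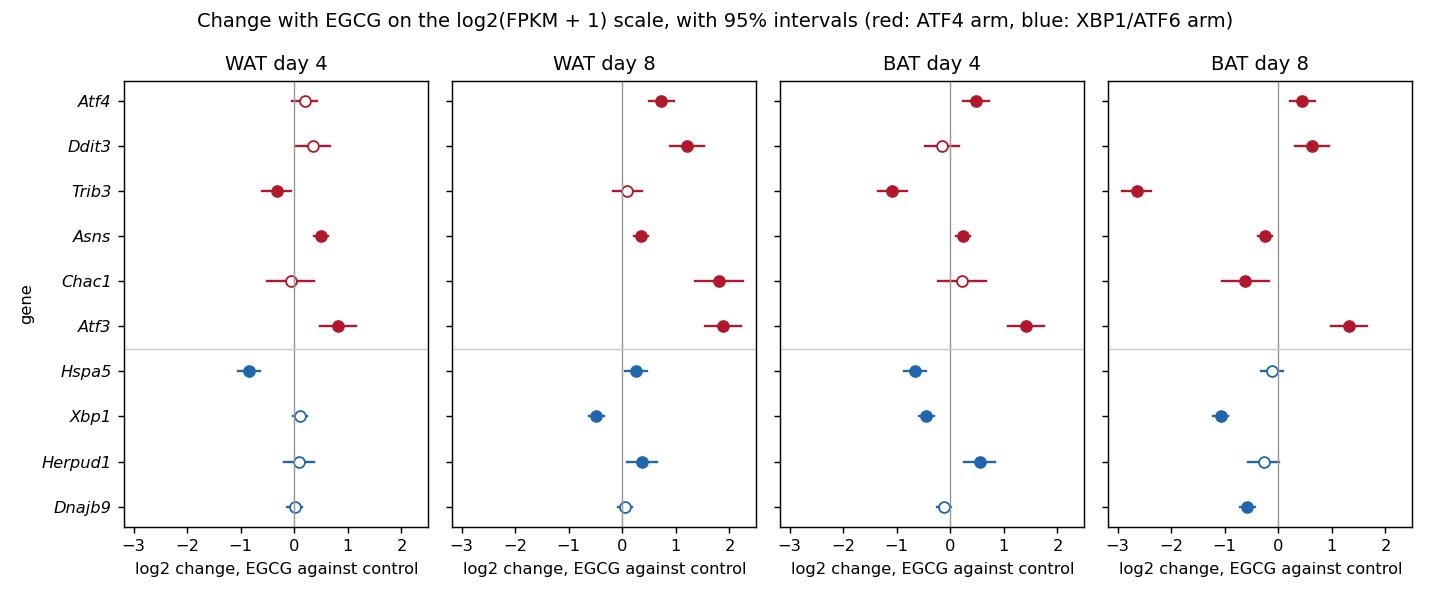
Log2 change with EGCG against control on the log2(FPKM + 1) scale (x axis) of the 10 genes (y axis) in the 4 depot and day combinations, with 95% intervals from limma on 2 replicates per group, filled where called. Atf3 lies right of 0 in all 4 panels, from 0.81 to 1.88, and Trib3 reaches -2.65 in BAT on day 8.

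The control cells were compared between day 8 and day 4 within each depot, and the difference between the depots in this course was not tested. In WAT control all 6 genes of the ATF4 arm fell, among them Chac1 3.93-fold (-1.61 ± 0.20, adjusted p = 2.65e-05) and Atf4 1.99-fold (-1.0 ± 0.11, adjusted p = 7.78e-06). Hspa5 (-0.75 ± 0.09) and Dnajb9 (-0.48 ± 0.06) fell as well, which made 8 lower and none higher of 10 (61.0% of all genes called, 27.7% higher and 33.2% lower). The smallest of these falls, that of Atf3 (-0.44, adjusted p = 0.028), was -0.09 without WAT day 8 control replicate 2 (adjusted p = 0.225) and was also lost without WAT day 4 control replicate 1 (adjusted p = 0.131) or 2 (0.0528) and without the filter on low values (0.0681). The count of higher genes was 0 in limma at an unadjusted p under 0.05 and in voom as well. In BAT control, 4 rose (Trib3 by 1.10, Herpud1 by 1.04, Atf3 by 0.82 and Chac1 by 0.72 on the log2 scale) and 2 fell (Hspa5 by 0.40 and Asns by 0.27), beside 69.2% of all genes called (28.7% higher and 40.4% lower). Median-ratio scaling gave 6 higher and 1 lower, with Asns at -0.09 (adjusted p = 0.166). Over all genes tested that scaling called 5207 higher and 4214 lower. The call of Hspa5 was lost under quantile normalization (-0.26, adjusted p = 0.0559) and that of Chac1 without BAT day 4 control replicate 1 (0.53, adjusted p = 0.0736). With EGCG, 2 rose and 4 fell in each depot. In WAT EGCG (59.5% of all genes called, 31.8% higher and 27.7% lower) Atf3 (0.63) and Hspa5 (0.36) rose, and Atf4, Asns, Xbp1 and Dnajb9 fell. In BAT EGCG (58.0% called, 29.7% higher and 28.2% lower) Ddit3 (0.97, adjusted p = 0.000121) and Atf3 (0.73) rose, and Trib3, Asns, Xbp1 and Dnajb9 fell. The comparisons between days share libraries with those between treatments.

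The 2 depots were also compared in control cells. On day 4, 7 genes were lower in BAT than in WAT and 1, Xbp1, was higher (55.8% of all genes called, 41.4% higher and 14.4% lower). Herpud1 was 2.04-fold lower (-0.99 ± 0.13, adjusted p = 6.84e-05) and Atf4 1.87-fold lower (-0.90 ± 0.11, adjusted p = 3.64e-05). The remaining 5 lower genes, Asns, Chac1, Atf3, Hspa5 and Dnajb9, had log2 differences of -0.30 to -0.63. The call of Atf3 (adjusted p = 0.0488) was lost with a pseudocount of 0.1 (adjusted p = 0.0527). Without the filter on low values, Atf3 (adjusted p = 0.112) and Chac1 (0.0526) lost their calls. Those of Atf3, Chac1 and Hspa5 were also lost when some single libraries were left out. The count of 8 fell to 5 without WAT day 4 control replicate 1 or replicate 2. The call of Xbp1 was not made under median-ratio scaling. On day 8, 5 genes were higher in BAT and 0 lower (53.6% called, 31.6% higher and 22.0% lower). The count of lower genes was 0 in limma at an unadjusted p under 0.05 and in voom as well. Trib3 was 3.47-fold higher (1.76 ± 0.12, adjusted p = 3.74e-07) and Chac1 4.22-fold higher (1.71 ± 0.20, adjusted p = 2.44e-05), and Atf3 (0.87), Ddit3 (0.72) and Dnajb9 (0.20) were higher too. The call of Dnajb9 was lost under median-ratio scaling (0.15, adjusted p = 0.0605) and quantile normalization (0.08, adjusted p = 0.288), and without WAT day 8 control replicate 2 (0.08, adjusted p = 0.175) or either control replicate of BAT day 8 (adjusted p = 0.0552 and 0.0784). Levels of Atf4, Asns, Hspa5, Xbp1 and Herpud1 overlapped between the depots on that day.

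The order of the 8 groups differed by gene. For Atf4, the 3 lowest groups, BAT day 8 control (126), WAT day 8 control (134) and BAT day 4 control (143), had overlapping replicates 1 and 2 from each to the next. WAT day 4 EGCG (304) was above all others. For Ddit3 the order ran from WAT day 8 control (42.1) to BAT day 8 EGCG (106), and only WAT day 4 control (67.1) and BAT day 8 control (68.2) overlapped as neighbours. For Hspa5 the order ran from BAT day 4 EGCG (298) to WAT day 4 control (589), and 4 neighbouring groups between 325 and 355 overlapped. For Xbp1 the 3 groups with the lowest means were all treated with EGCG, and 4 neighbouring groups between 115 and 124 overlapped. The genes whose pattern over the 8 groups was nearest to that of Ddit3, by the root mean square distance of centred log2(FPKM + 1) group means, were Ctns (0.19), Kdm6b (0.19) and Klhl34 (0.21), against a median distance of 0.49 over all genes tested. Those nearest to Hspa5 were Ift20 (0.14), Slitrk1 (0.15) and Gm16024 (0.15), against a median of 0.46. Group means were 7.45 to 17.7 FPKM for Ctns, 10.5 to 17.5 for Kdm6b and 30.8 to 54.8 for Ift20. They were only 0.141 to 1.36 for Klhl34, 0.0724 to 1.28 for Slitrk1 and 0.311 to 1.54 for Gm16024, where log2(FPKM + 1) compresses changes, and nothing is read from the likeness of these 3.

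Ratios between 2 genes of the same library do not depend on how the library was scaled, so that all 3 replicates could be used. The ratio of Ddit3 to Trib3 was 2.28, 2.23 and 1.82 in WAT day 4 control and 3.48, 3.86 and 3.70 with EGCG. It was 2.35, 2.15 and 2.07 in WAT day 8 control and 4.77, 5.06 and 5.06 with EGCG, and 2.05, 2.00 and 1.92 in BAT day 4 control and 4.14, 3.91 and 3.39 with EGCG. In BAT on day 8 it was 1.04, 1.07 and 1.09 in control and 11.3, 11.1 and 11 with EGCG. The ratio was thus higher with EGCG in every library of all 4 comparisons, and the difference between means was 10.4-fold in BAT on day 8 and 1.74-fold to 2.27-fold in the others. Trib3 to Atf4 fell with it, from 0.511 ± 0.007 (SD, n = 3) to 0.0558 ± 0.0021 in BAT on day 8, and WAT day 8 EGCG replicate 3, at 0.0929, lay beside 0.0893 and 0.0880 of the other replicates.

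The ratio of Xbp1 to Hspa5 changed direction between days. On day 4 it was 0.198 ± 0.007 in WAT control and 0.381 ± 0.019 with EGCG, and 0.288 ± 0.007 in BAT control and 0.332 ± 0.010 with EGCG (SD, n = 3). On day 8 it was 0.340 ± 0.028 against 0.202 ± 0.008 in WAT and 0.345 ± 0.008 against 0.183 ± 0.009 in BAT. Libraries of the treatments did not overlap in any of these. The same held for 37 of the 40 ratio comparisons made, so that it is not particular to the ratios shown. The ratio of Atf4 to Hspa5, the leading genes of the arms, was higher with EGCG in every library, at 0.945 ± 0.047 against 0.459 ± 0.012 in WAT and 0.670 ± 0.041 against 0.312 ± 0.018 in BAT on day 4, and at 0.538 ± 0.023 against 0.378 ± 0.009 and 0.542 ± 0.021 against 0.350 ± 0.013 on day 8. In the exact permutation test, two-sided, 3 libraries against 3 cannot give a p below 0.1, which each of these differences reached (0.108 after Benjamini-Hochberg adjustment over the 40 ratio tests made).

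**Figure D4:**
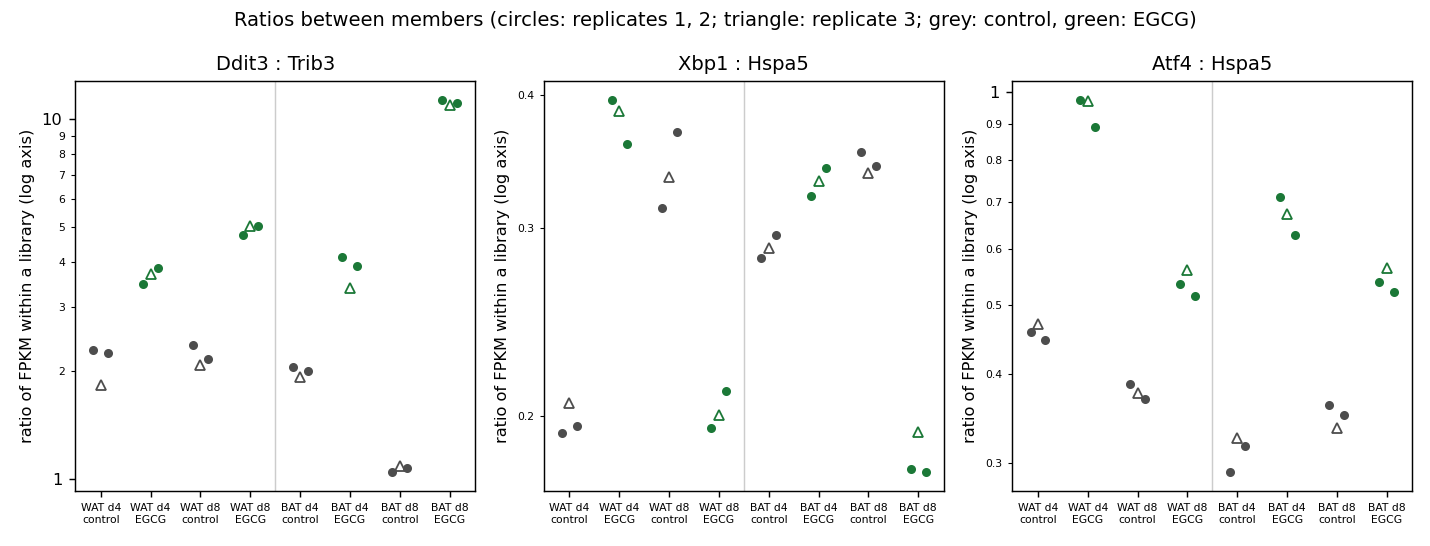
Ratios of FPKM between 2 genes within each library (y axis, log scale) by group (x axis) for Ddit3 to Trib3, Xbp1 to Hspa5 and Atf4 to Hspa5, with circles for replicates 1 and 2 and a triangle for replicate 3. Replicate 3 of WAT day 8 EGCG falls beside replicates 1 and 2 here, and Ddit3 to Trib3 goes from a mean of 1.07 to 11.1 in BAT on day 8.

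A wider list of 41 ATF4 target genes (amino acid transport and synthesis, aminoacyl-tRNA synthetases, stress secreted factors) had genes called in both directions in all 4 comparisons. With EGCG 23 rose and 5 fell in WAT on day 4, 27 rose and 6 fell in WAT on day 8, 18 rose and 10 fell in BAT on day 4, and 17 rose and 17 fell in BAT on day 8. As shares of the list these were 56.1%, 65.9%, 43.9% and 41.5% higher and 12.2%, 14.6%, 24.4% and 41.5% lower, beside 34.4%, 44.7%, 27.9% and 46.5% higher and 19.3%, 18.9%, 20.6% and 26.1% lower over all genes. Under median-ratio scaling the counts were 16 and 10, 22 and 13, 16 and 10, and 15 and 21. Of the 14095 genes tested, the same scaling called 3504 higher and 3945 lower, 4036 and 3944, 3541 and 3164, and 5021 and 4815. Gdf15, a secreted stress factor, rose in all 4, from 4.77 ± 0.04 to 18.2 ± 2.5 FPKM in WAT on day 4 (SD, n = 2) and from 5.18 ± 0.29 to 19.9 ± 1.7 in BAT on day 8. Ddit4, an inhibitor of mTORC1, rose from 68.9 ± 2.4 to 304 ± 17 in WAT on day 4 and fell from 142 ± 72 to 75.0 ± 0.9 in WAT on day 8. Sesn2, another inhibitor of mTORC1, rose on day 8 in both depots, from 14.2 ± 5.1 to 37.9 ± 0.5 in WAT and from 14.9 ± 0.5 to 30.9 ± 0.3 in BAT. Slc1a5, the glutamine transporter ASCT2, fell in all 4, most in BAT on day 8, from 798 ± 9 to 57.3 ± 0.2 (-3.78 ± 0.14 SE, adjusted p = 4.56e-10). Cth, an enzyme of cysteine synthesis, fell in BAT from 25.3 ± 2.1 to 9.22 ± 0.62 on day 4 and from 7.80 ± 0.01 to 1.52 ± 0.03 on day 8, and Eif4ebp1, a repressor of translation initiation, fell from 287 ± 7 to 96.5 ± 1.9 in BAT on day 8.

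A list of chaperones, disulfide isomerases, translocation and degradation factors that follow XBP1 and ATF6 (32 genes, 31 matched to 1 identifier each and tested) turned with the day. On day 4, 7 rose and 19 fell in WAT and 4 rose and 16 fell in BAT, with median log2 changes of -0.29 and -0.17. On day 8, 22 rose and 3 fell in WAT and 19 rose and 6 fell in BAT, with medians of 0.31 and 0.28. The shares of the list were 22.6%, 12.9%, 71.0% and 61.3% higher and 61.3%, 51.6%, 9.68% and 19.4% lower for WAT and BAT on day 4 and WAT and BAT on day 8, beside 34.4%, 27.9%, 44.7% and 46.5% higher and 19.3%, 20.6%, 18.9% and 26.1% lower over all genes. Under median-ratio scaling the counts were 2 and 21, 4 and 17, 14 and 4, and 13 and 8. Of the 14095 genes tested, the same scaling called 3504 higher and 3945 lower, 3541 and 3164, 4036 and 3944, and 5021 and 4815. The list medians under it were -0.42 (WAT) and -0.20 (BAT) on day 4 and 0.10 and 0.08 on day 8. In the test of the difference between days, the change with EGCG was higher on day 8 than on day 4 for 24 genes and lower for 1 in WAT, and higher for 20 and lower for 4 in BAT. Over all genes tested 29.7% were higher and 19.7% lower in WAT, and 34.7% and 20.6% in BAT. Manf, a secreted protein of the endoplasmic reticulum, fell from 82.2 ± 5.1 to 51.9 ± 1.8 FPKM in WAT on day 4 (SD, n = 2). Pdia6, a disulfide isomerase, fell on day 4 from 252 ± 2 to 179 ± 2 in WAT and from 246 ± 7 to 176 ± 0.2 in BAT. Canx, the lectin chaperone calnexin, rose on day 8 from 100.0 ± 6.3 to 189 ± 0.3 in WAT and from 102 ± 4 to 199 ± 0.3 in BAT, and Pdia3, which works with it, rose from 229 ± 2 to 373 ± 2 and from 194 ± 14 to 315 ± 7. Derl1, a part of the channel for degradation, fell on day 8 in both depots, to 57.5 ± 0.4 from 64.4 ± 1.2 and to 46.4 ± 0.6 from 72.5 ± 1.4.

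**Figure D5:**
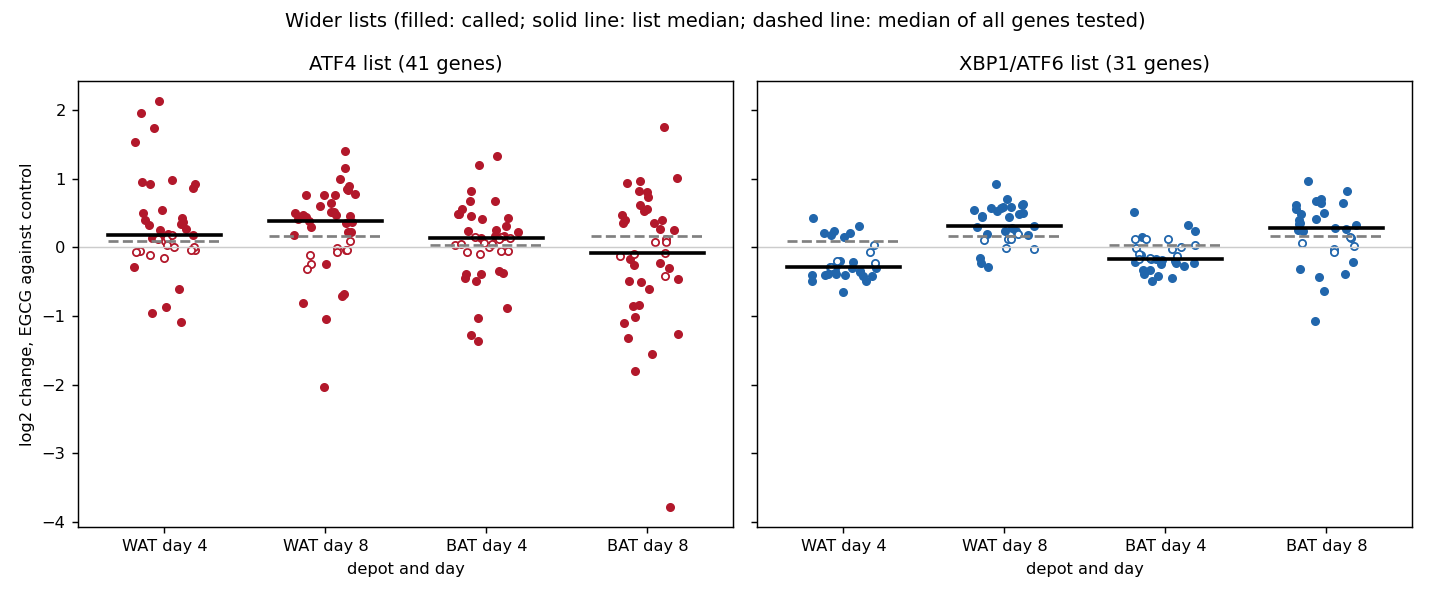
Log2 change with EGCG (y axis, log2(FPKM + 1) scale) of each gene of the ATF4 list (41 genes) and the XBP1/ATF6 list (31 genes) in the 4 depot and day combinations (x axis), filled where called, with the list median as a solid line and the median of all genes tested as a dashed line. The median of the XBP1/ATF6 list goes from -0.29 on day 4 to 0.31 on day 8 in WAT, and the lowest point of the ATF4 list is Slc1a5 at -3.78.

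The change with EGCG itself was compared between depots and between days. In BAT against WAT on day 8, 8 of the 10 genes had a lower change (39.2% of all genes called, 19.4% higher and 19.7% lower), and 0 had a higher one, also in limma at an unadjusted p under 0.05 and in voom. They were Trib3 (-2.74 ± 0.17, adjusted p = 8.05e-07), Chac1 (-2.42 ± 0.28, adjusted p = 5.78e-05), Herpud1, Dnajb9, Asns, Xbp1, Ddit3 and Hspa5. Those of Ddit3 (adjusted p = 0.0426) and Hspa5 (0.041) lay close to the threshold, and leaving out BAT day 8 control replicate 2 lowered the count from 8 to 5. Atf4 (-0.28, 95% interval -0.61 to 0.05) and Atf3 (-0.56, -1.04 to -0.08, adjusted p = 0.0633) were not called. With both tables median-ratio scaled, Atf4 (-0.27, adjusted p = 0.0371) and Atf3 (-0.62, adjusted p = 0.00349) were called lower. Atf3 was also called lower in voom (-0.61, adjusted p = 0.0145) and with both tables without the library that stood apart (-0.58, adjusted p = 0.0135). On day 4, 3 genes differed between depots (28.1% of all genes called, 12.0% higher and 16.1% lower), Trib3 (-0.76), Xbp1 (-0.55) and Asns (-0.26), each lower in BAT. That of Asns (adjusted p = 0.0376) was lost without any 1 of 7 libraries, of which WAT day 4 control replicate 2 moved it most (-0.19, adjusted p = 0.139), under median-ratio scaling (-0.17, adjusted p = 0.139) and without the filter on low values (adjusted p = 0.0673). The count of higher genes was 0 in limma, 2 at an unadjusted p under 0.05, 1 in voom and 2 under median-ratio scaling. The last 2 were Atf3 (0.67, adjusted p = 0.0418) and Herpud1 (0.55, adjusted p = 0.0448). Of all genes tested, that scaling called 2262 higher and 1483 lower. Between the days, 6 genes differed in WAT (49.4% called, 29.7% higher and 19.7% lower), with Hspa5 (1.11 ± 0.13, adjusted p = 4.8e-05), Chac1, Atf3, Ddit3 and Atf4 higher on day 8 and Xbp1 lower. In BAT 8 differed (55.4% called, 34.7% higher and 20.6% lower), with Ddit3 (0.78) and Hspa5 (0.53) higher on day 8 and Trib3 (-1.56 ± 0.17, adjusted p = 1.71e-05), Chac1, Herpud1, Xbp1, Asns and Dnajb9 lower. The call of Chac1 in BAT (-0.83, adjusted p = 0.0261) was lost with a pseudocount of 0.1 (adjusted p = 0.0542) and without the filter on low values (0.0671). It was also lost when some single libraries were left out, with -0.64 without BAT day 4 control replicate 1. In both depots the change of Ddit3 and Hspa5 with EGCG was higher on day 8 and that of Xbp1 was lower.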

How the data were processed

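RNA of 24 libraries in 8 groups (depot, day and treatment, from the sample labels) was sequenced. The authors deposited FPKM values in 2 tables, scaled separately, replicates 1 and 2 in 1 (16 libraries) and replicate 3 in the other (8 libraries). The submitters' processing notes name FastQC 0.11.9, HISAT2 2.2.0, HTSeq 0.11 and mm9. Their settings, and whether counting used the strand, are not given in the sources used here. All 37310 identifiers were matched to symbols of GENCODE vM1 (mm9). Values were whole multiples of 1 read (tolerance 0.01) in at least 99.9% of cases per library, so that reads could be recovered. For a gene of 2 kilobases, 3 reads corresponded to at most 0.038 FPKM in replicates 1 and 2, and this floor covers counting error only.

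Genes with an FPKM of at least 1 in at least 2 of the 16 libraries (14095) were tested on log2(FPKM + 1) in limma 3.58.1 (R 4.3.3), with 1 mean per group, 8 residual degrees of freedom (11.4 with the prior) and a trend. Tests were two-sided and adjusted by Benjamini-Hochberg within each of 14 contrasts. The log2(FPKM + 1) scale understates changes of low genes. Alternatives were a pseudocount of 0.1, no filter, median-ratio scaling, quantile normalization, a replicate block, both tables in 1 fit, voom on recovered reads and leaving out single libraries. A fit of both tables with median-ratio scaling was added after seeing the data, as were the ratios between genes. The fit was tested on simulated data.

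The 10 genes and the lists were chosen with earlier results of these data known. All 10 are named in each comparison, and of the wider lists the 3 genes that rose most and the 3 that fell most in an EGCG comparison could be named. Ufm1 matched 2 identifiers and was left out, and Adgre1 is listed under Emr1. Lists of skeletal muscle markers (6 genes) and fibroblast and progenitor markers (5 genes) were also summed. With EGCG, 4 muscle markers of 4 tested were called higher in WAT on day 4, 2 in WAT on day 8 and none in BAT on day 4, and 1 was lower in BAT on day 8. Of 4 fibroblast and progenitor markers tested, 1 was higher and 2 were lower in WAT on day 4, 4 were lower in WAT on day 8, 1 was lower in BAT on day 4 and 3 were lower in BAT on day 8.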

Additional observations from a re-analysis of the deposited data

Results flagged for a closer look

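For 25 combinations of gene and comparison the change with EGCG differed between depots or between days, in limma's test of that difference (adjusted p under 0.05 over 14095 genes). The values are differences of log2 changes, BAT minus WAT or day 8 minus day 4.

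Between depots on day 4, Trib3 had -0.76, Xbp1 -0.55 and Asns -0.26, the last of which was lost without any 1 of 7 libraries and under median-ratio scaling. On day 8, Trib3 had -2.74, Chac1 -2.42, Herpud1 -0.64, Dnajb9 -0.63, Asns -0.60, Xbp1 -0.60, Ddit3 -0.58 and Hspa5 -0.38. Chac1 and Asns thus rose in WAT and fell in BAT on that day. The differences of Ddit3 and Hspa5 on day 8 lost the call without the filter on low values (adjusted p = 0.1 and 0.0972). They also lost it under quantile normalization (adjusted p = 0.145 and 0.0727), with both tables as deposited in 1 fit and without some single libraries.

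Between days in WAT, Chac1 had 1.87, Hspa5 1.11, Atf3 1.07, Ddit3 0.85, Atf4 0.54 and Xbp1 -0.59. Between days in BAT, Ddit3 had 0.78, Hspa5 0.53, Dnajb9 -0.46, Asns -0.49, Xbp1 -0.63, Herpud1 -0.82, Chac1 -0.83 and Trib3 -1.56. The call of Chac1 in BAT was lost with a pseudocount of 0.1, without the filter on low values and without some single libraries.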

How the results depend on the processing

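The fit of both tables as deposited, with the table as a term, departed most. It gives full weight to WAT day 8 EGCG replicate 3. Under it 43 of the 140 single-gene results lost their call, 1 gained one and 5 reversed, and the counts of the 10 genes called became 2 (from 4) for EGCG in WAT on day 4, 4 (from 8) in WAT on day 8, 3 (from 7) in BAT on day 4, 4 (from 8) in BAT on day 8, 3 (from 8) for BAT against WAT on day 4, 0 (from 3) and 2 (from 8) for the depot differences on days 4 and 8, and 2 (from 6) and 1 (from 8) for the day differences in WAT and BAT. Calls over all 14095 genes tested fell in this fit too. For EGCG they fell to 3081 (from 7567), 3750 (from 8962), 2671 (from 6838) and 6723 (from 10231), in the same order. For BAT against WAT on day 4 they fell to 2556 (from 7867). They fell to 627 (from 3959) and 2128 (from 5520) for the depot differences. For the day differences they fell to 2425 (from 6962) and 2332 (from 7803). The reversed values were those of EGCG in WAT on day 8 for Asns (-0.0238), Hspa5 (-0.177) and Herpud1 (-0.0169), the day 8 against day 4 value of Hspa5 in WAT EGCG (-0.0929) and the depot difference of Hspa5 on day 8 (0.0536). With that library left out, 0 calls were lost and 13 gained.

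The depot difference on day 4 went from 3 called genes to 6 with both tables and without that library, to 7 with both tables median-ratio scaled and to 5 with voom. Calls over all genes tested went from 3959 to 5167, 5054 and 3973 in these fits. Dnajb9 reversed for EGCG in WAT on day 4 with both tables median-ratio scaled (-0.14), and in WAT on day 8 under median-ratio scaling (-0.15), quantile normalization (-0.15) and both tables median-ratio scaled (-0.13). It was called only after the reversal. A change of sign with no call in either fit is not counted as reversed, and there were 8 of these under median-ratio scaling. For the other settings the causes were not tested.

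Leaving out 1 library, the count for BAT against WAT on day 4 was 5 to 6 (from 8) and that for the depot difference on day 8 was 5 to 10 (from 8, with 10 without WAT day 8 control replicate 1 and 5 without BAT day 8 control replicate 2). For EGCG the counts were 3 to 4 in WAT on day 4, 6 to 10 in WAT on day 8, 7 in BAT on day 4 and 7 to 8 in BAT on day 8. Over all genes tested, every such fit called fewer genes for EGCG and for BAT against WAT on day 4. Most did for the depot difference on day 8. A fit that leaves a group with 1 library assumes that it varies like the others.

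No pairing by replicate number was seen over all genes tested. Over 28 pairs of groups, the differences between replicates 1 and 2 correlated at -0.079 to 0.081. This cannot show whether libraries of the same number shared an isolation, which the labels do not state. With a replicate block, the counts for EGCG were 4, 8, 7 and 8, as without it, and 140 of 140 single-gene results kept direction and call. Depth limits Chac1 most, with as few as 82 recovered reads in a library of replicates 1 and 2, against 395 for Atf3 and at least 902 for the other 8 genes.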

Other observations

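Kinases, sensors and other factors of these responses, not all of them upstream of the arms, were measured as a list of 12 genes. With EGCG 5 were called higher in WAT on day 4 and 9 in WAT on day 8. In BAT 3 were called higher on day 4 and 7 on day 8. In that order 1, 2, 2 and 3 were called lower. Over all genes, 34.4%, 44.7%, 27.9% and 46.5% were called higher and 19.3%, 18.9%, 20.6% and 26.1% lower. The shares of the list were 41.7%, 75.0%, 25.0% and 58.3% higher and 8.33%, 16.7%, 16.7% and 25.0% lower. Under median-ratio scaling the counts were 5, 4, 3 and 3 higher and 3, 3, 2 and 4 lower. The same scaling called 3504, 4036, 3541 and 5021 of the 14095 genes tested higher and 3945, 3944, 3164 and 4815 lower. Ero1l, the oxidase that drives disulfide formation in the endoplasmic reticulum, had the largest change of the 12 genes, with a log2 change of -3.43 in BAT on day 8. Its FPKM rose from 67.9 ± 2.8 to 139 ± 1 in WAT on day 4 (SD, n = 2) and fell in the other 3 comparisons, from 70.1 ± 9.8 to 39.2 ± 0.2 in WAT on day 8, from 89.6 ± 6.5 to 50.2 ± 1.8 in BAT on day 4 and from 271 ± 0.4 to 24.2 ± 0.5 in BAT on day 8. Ern1, which encodes the sensor IRE1 alpha, rose in WAT on day 4 from 11.2 ± 0.6 to 24.6 ± 0.04, rose in WAT on day 8 and in BAT on day 4 (log2 change 0.28 in both) and fell in BAT on day 8, from 11.3 ± 0.9 to 9.58 ± 0.25. Bbc3, the cell death factor PUMA, rose from 5.75 ± 0.50 to 17.0 ± 2.2 in WAT on day 4 and from 12.4 ± 0.5 to 21.3 ± 1.0 in WAT on day 8. It also rose in BAT on day 4 (0.56) and was not called in BAT on day 8 (-0.15). Atf5, a transcription factor related to ATF4, rose in all 4 comparisons, with log2 changes of 0.29, 0.45, 0.58 and 0.32. Eif2ak3, which encodes PERK, was called in BAT on day 8 alone (0.23), and Eif2s1, which encodes eIF2 alpha, rose on day 8 in WAT (0.67) and in BAT (0.59).

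Replicates 1 and 2 of WAT day 8 control differed in the same direction for all 10 genes. Replicate 1 was higher for 10 of 10, with a median log2 difference of 0.46 (0.12 to 0.76), while over all genes tested the median was 0.01. In WAT day 4 control replicate 1 was also higher for 10 of 10, but the median difference was 0.11. In the other 6 groups it lay between -0.09 and 0.03. WAT day 8 control enters EGCG in WAT on day 8, day 8 against day 4 in WAT control and BAT against WAT on day 8. It also enters the depot difference on day 8 and the day difference in WAT. Counts over the 10 genes in these are not counts of separate results, and the SE pools the spread of all 8 groups.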
